A study of Mus musculus with 12 samples.

Results

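Macrophages are recognised by surface and lysosomal proteins that most cells of the lineage carry, and they depend on the colony stimulating factors (CSF). Of the 16971 genes listed, 10 of this kind were followed in cells sorted from mouse liver. They were taken by gene symbol: 6 lineage genes (*Adgre1*, *Cd68*, *Aif1*, *Laptm5*, *Lyz2* and *Lyz1*), the ligand *Csf1*, and the receptor genes *Csf1r*, *Csf2ra* and *Csf2rb*. All 10 passed the filter on low values, which left 12891 genes and asked for at least 10 normalized counts in sum over the 10 libraries.

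The cells were GFP(+) cells from livers of Prom1CreERT2-nLacZ/+;Rosa26Lsl-GFP/+ mice, C57BL/6 in the labels, bred from a knock-in line on C57BL/6N and a reporter line on C57BL/6J. In these mice tamoxifen activates a Cre recombinase made from the *Prom1* locus, and cells that had Cre at that time, with their progeny, stay marked by GFP. All mice, the sham group included, carried both alleles and received tamoxifen at 6 weeks of age, 7 days before day 0. Mice of day 0 (d0) had sham surgery according to the labels, and the others were collected on day 3 (d3) or day 14 (d14) of cholestatic injury by bile duct ligation (BDL), an operation that stops the flow of bile. The gate used GFP and dead cell exclusion and no macrophage or epithelial surface protein, so it does not set the cell type. By the design GFP marks cells in which Cre had acted. Whether all sorted cells were marked in this way was not tested here. The means cover 3 d0, 3 d3 and 4 d14 libraries, although 6 d14 libraries are labelled. By the study's description the mice behind the means were 1 male and 2 females at d0, 2 males and 1 female at d3, and 3 males and 1 female at d14, so the share of males differed between the groups and its part in the ratios was not tested.

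Each value below is the authors' group mean of upper-quartile normalized counts. Values per library were not analysed here, apart from the count of the highest of the 10 libraries, whose group is not named. The depth per library is unknown. The spread within groups was therefore worked back from the gap between the authors' geometric mean and the group means. This takes the values as log-normal with the same spread in the 3 groups, and the SE given below is an approximation from it with 7 residual degrees of freedom. The study describes its d14 replicates as varying more than those of d0, so the spread may not be the same. The SE of ratios that involve d14 may therefore be too small. No test was run, since limma or edgeR need values per library, the 2 SE line used below is not a significance threshold, no p-value is given, and a ratio of group means past 1.5-fold is called higher or lower as a description only.

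The colony stimulating factor 1 receptor (CSF1R) is a tyrosine kinase on cells of the monocyte and macrophage lineage, and its ligands CSF1 and interleukin 34 keep these cells alive and dividing. The receptor for granulocyte-macrophage CSF (CSF2) pairs a ligand-binding alpha chain, *Csf2ra*, with a signalling beta chain, *Csf2rb*, which the receptors for interleukin 3 and interleukin 5 share. In the liver, resident Kupffer cells and macrophages from recruited monocytes both carry CSF1R, and after injury monocytes add to the macrophage pool.

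Mouse *Lyz1* and *Lyz2* are neighbouring copies on chromosome 10 that both encode lysozyme, and reads from the shared stretches cannot be assigned to either gene with certainty. The coding sequences of the longest annotated transcripts had 422 of 444 aligned bases in common (95.0%), with a longest shared run of 118 bases. Exon 2 is shown because it holds long identical stretches around the few bases that tell the genes apart. The sequences are of build GRCm38 (mm10) with GENCODE M21 exons, 5′ to 3′ on the gene's strand, and the 6 bases that differ between the genes are in capitals.
Lyz2 exon 2, chr10:117280641-117280805, minus strand: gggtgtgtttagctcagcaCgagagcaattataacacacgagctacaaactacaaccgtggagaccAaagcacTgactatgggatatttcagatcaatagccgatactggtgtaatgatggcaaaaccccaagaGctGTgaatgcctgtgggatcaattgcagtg
Lyz1 exon 2, chr10:117291029-117291193, minus strand: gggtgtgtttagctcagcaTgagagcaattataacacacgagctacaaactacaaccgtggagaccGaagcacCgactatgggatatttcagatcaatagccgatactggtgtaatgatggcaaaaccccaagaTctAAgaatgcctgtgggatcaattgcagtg
Of all 25-base words in the transcripts, 42.2% of those of *Lyz1* occurred in *Lyz2*, and 40.5% of those of *Lyz2* occurred in *Lyz1*. With words of 50 bases the shares were 16.1% and 15.4%. The shortest reads kept by the authors were of 25 bases.

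The genes also resembled each other upstream of their start sites. Bases 250 to 51 upstream of the RefSeq starts (build GRCm38.p6) are shown for this pair because the 2 genes had the highest ratios to d0 of the 10 at d14. Of 198 aligned bases 150 (75.8%) were identical, and capitals mark a shared run of 14 bases, at bases 106 to 93 upstream in both.
Lyz2 upstream, chr10:117282323-117282522, minus strand: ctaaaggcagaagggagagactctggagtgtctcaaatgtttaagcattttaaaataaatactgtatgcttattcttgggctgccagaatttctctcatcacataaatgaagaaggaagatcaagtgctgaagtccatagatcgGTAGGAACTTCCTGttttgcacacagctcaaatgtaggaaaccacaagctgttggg
Lyz1 upstream, chr10:117292919-117293118, minus strand: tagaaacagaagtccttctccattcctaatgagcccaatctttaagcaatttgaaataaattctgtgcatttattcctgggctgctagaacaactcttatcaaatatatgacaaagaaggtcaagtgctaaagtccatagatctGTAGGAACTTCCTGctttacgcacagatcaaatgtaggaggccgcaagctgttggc
The letters GAGGAA, a core recognised by the macrophage factor PU.1, were searched on both strands of this window. They occurred in 1 of the 7 members searched and in 5057 of 27025 promoters in the table (18.7%). The member was *Cd68*, whose window is shown with the match, 225 bases upstream, in capitals. A match describes the letters and is not evidence of binding. *Adgre1*, *Csf1r* and *Csf2rb* were not searched, nor were bases nearer to a start than base 51, so matches there would be missed.
Cd68 upstream, chr11:69666221-69666420, minus strand: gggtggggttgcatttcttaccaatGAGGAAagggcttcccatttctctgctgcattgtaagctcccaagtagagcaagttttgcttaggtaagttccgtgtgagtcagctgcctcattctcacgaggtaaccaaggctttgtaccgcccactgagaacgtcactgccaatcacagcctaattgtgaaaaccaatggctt

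At d3, most lineage genes and all 3 CSF receptor genes had means above d0. Of the 10 genes, 9 were past 1.5-fold either way, against 48.4% of all genes kept. Higher were 7, against 19.2% of all genes, and lower were 2, against 29.2%. Those higher were *Csf2rb*, *Adgre1*, *Cd68*, *Lyz2*, *Laptm5*, *Csf2ra* and *Csf1r*, and those lower were *Lyz1* and *Csf1*. Of these, 4 were also over 2 approximate SE higher (11.4% of all genes), and 0 were over 2 SE lower (15.0% of all genes). The median log2 ratio of the 10 genes was 0.81, against -0.02 over all genes kept and 0.32 over the 3287 genes with a mean of at least 30 normalized counts, a level that 8 of the 10 exceeded in every group. These directions are relative to the authors' scaling: with the pan-leukocyte genes set to a median log2 ratio of 0, 1 of the 10 genes was past 1.5-fold higher and 3 were lower (55.5% of all genes either way), and with quantile normalization the log2 ratio of *Lyz1* was 0.11 instead of -0.62. The lower *Lyz1* and *Csf1* lay close to the 1.5-fold line, and neither was past it with a pseudocount of 1.

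**Figure D1:**
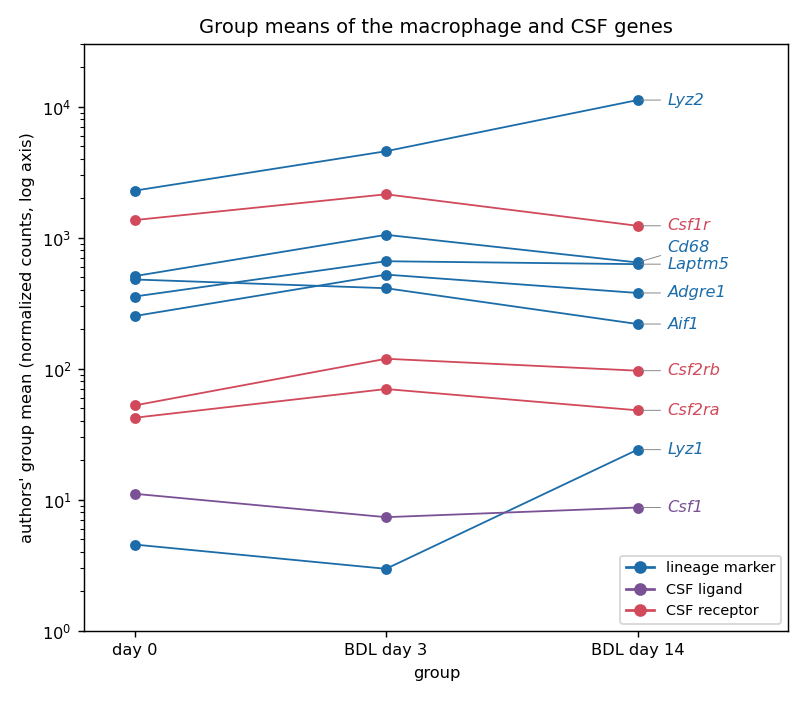
Authors' group means of the 10 genes in normalized counts (log axis) at d0, d3 and d14, coloured by role, with lines joining the means of a gene. *Lyz2* lay highest in each group, from 2280 to 11200, and *Lyz1* was the gene with the widest range, from 2.97 to 24.1.

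Of the lineage genes, *Adgre1* encodes F4/80, an adhesion receptor used to identify mouse macrophages. Its group mean was 252 normalized counts at d0, 522 at d3 and 378 at d14, and the highest library held 622. The d3 mean was 2.07-fold the d0 mean, a log2 ratio of 1.05 with an approximate SE of 0.33. Since no library exceeded 622, each d3 library held at least 320, above the d0 mean. The highest library can be of any of the 3 groups, d0 included, so the libraries of d0 and d3 may still overlap. At d14 the log2 ratio to d0 was 0.58 (SE 0.30), which rounds to the 1.5-fold line, and the rounding of the deposited means does not settle on which side it lies.

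*Cd68* encodes macrosialin, a glycoprotein of the membranes of lysosomes. Its group means were 508, 1050 and 646 normalized counts at d0, d3 and d14, with 1250 in the highest library. The d3 mean was 2.07-fold that of d0 (log2 ratio 1.05, SE 0.38), and each d3 library held at least 625, again above the d0 mean. Here too the highest library can be of d0, so the groups may overlap. By d14 the mean was 1.63-fold lower than at d3 (log2 ratio -0.70, SE 0.35), and its log2 ratio to d0 of 0.35 was about the size of its SE, 0.35. Per kb of exon, *Cd68* was 5.19 times *Adgre1* at d0, 5.18 times at d3 and 4.40 times at d14.

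*Laptm5* encodes a lysosomal membrane protein of blood cells. It had means of 355 normalized counts at d0, 660 at d3 and 627 at d14, with 1030 in the highest library. The means after BDL were 1.86-fold and 1.77-fold that of d0. With a spread within groups of 48.1%, against a median of 26.6% over the 3287 genes with a mean of at least 30, these ratios were 1.6 and 1.5 times their SE. The 2 BDL means were 1.05-fold apart.

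*Aif1* encodes IBA1, a calcium-binding protein of macrophages and microglia that bundles actin. Of the lineage genes it alone had a d14 mean below that of d0, with means of 479 normalized counts at d0, 411 at d3 and 219 at d14 and 719 in the highest library. The d14 mean was 2.19-fold lower than that of d0 (log2 ratio -1.13, SE 0.52). At d3 the log2 ratio of -0.22 was smaller than its SE of 0.56. Per kb of exon, the level of *Adgre1* was 0.249 times that of *Aif1* at d0, 0.601 times at d3 and 0.817 times at d14, so these macrophage genes did not keep a fixed proportion.

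*Lyz2* encodes lysozyme M, the bacterial cell wall enzyme made by macrophages and other myeloid cells. Its means were 2280 normalized counts at d0, 4560 at d3 and 11200 at d14, higher in each later group. They were 2.00-fold (log2 ratio 1.00, SE 0.40) and 4.91-fold (2.30, SE 0.37) that of d0, and the step from d3 to d14 was 2.46-fold (1.30, SE 0.37). Only 1.44% of all genes kept had a higher ratio of d14 to d0. Per kb of exon *Lyz2* ranked 35th of 12862 genes with a length at d0, 23rd at d3 and 4th at d14, and its share of the summed signal was 0.247%, 0.540% and 1.52%.

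The highest *Lyz2* library, at 19100 normalized counts, can only be of the d14 group, since it exceeds the summed counts of either other group. It held 42.6% of that group's sum over 4 libraries, and the other 3 had a mean of 8567, still above the means of both other groups. The level of *Lyz2* per kb was 4.29 times that of *Cd68* at d0, 4.15 times at d3 and 16.6 times at d14. From d0 to d3 these lysosomal genes kept their proportion, and at d14 they did not.

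*Lyz1* encodes lysozyme P, which is best known from Paneth cells of the intestine. Its means were 4.55, 2.97 and 24.1 normalized counts at d0, d3 and d14. The d14 mean was 5.30-fold that of d0 (log2 ratio 2.41, SE 0.64) and 8.11-fold that of d3 (3.02, SE 0.64), whereas the log2 ratio of d3 to d0, -0.62, was within its SE of 0.68. The highest library, at 50.4, can only be of the d14 group and held 52.3% of its sum, and the other 3 had a mean of 15.3. Per kb of exon *Lyz2* was 481 times *Lyz1* at d0, 1474 times at d3 and 446 times at d14. Whether reads of *Lyz2* contributed to the low counts of *Lyz1*, through the shared stretches shown above, was not tested.

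**Figure D2:**
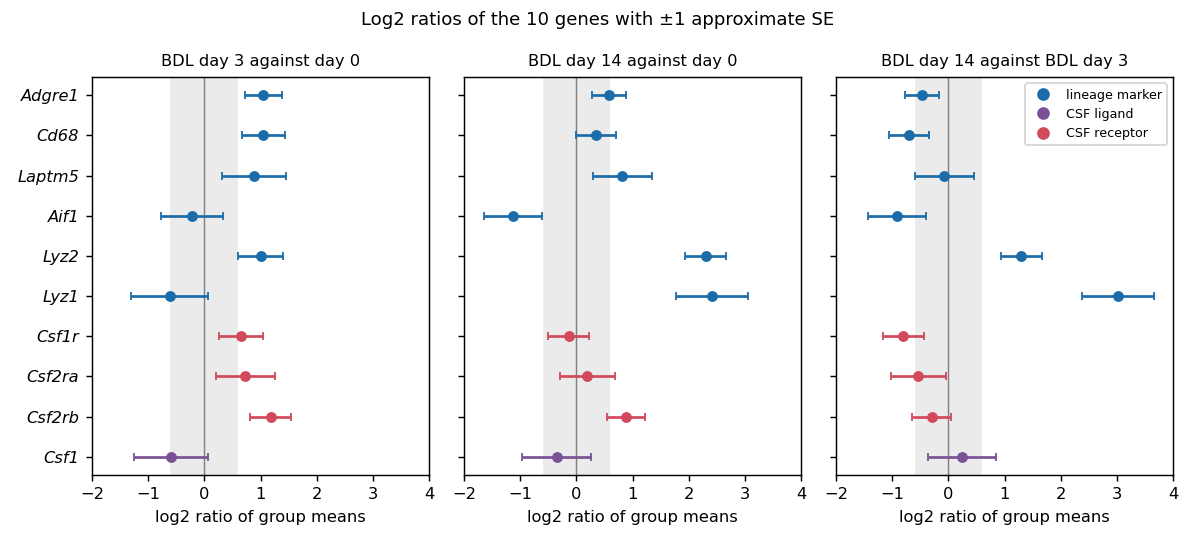
Log2 ratios of group means for the 10 genes in the 3 comparisons, with bars of 1 approximate SE either way, and the grey band marks ratios within 1.5-fold. At d3 the points of *Adgre1*, *Cd68*, *Lyz2* and *Csf2rb* lie at 1.00 to 1.18, while at d14 *Lyz1* and *Lyz2* lie at 2.41 and 2.30 and *Aif1* at -1.13.

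Among the receptors, *Csf1r* was by far the most abundant. Its means were 1360 normalized counts at d0, 2140 at d3 and 1230 at d14, with 2610 in the highest library. The mean of d3 was 1.57-fold that of d0 (log2 ratio 0.65, SE 0.39), and that of d14 was 1.74-fold lower than at d3 (-0.80, SE 0.37). Each d3 library held at least 1175, which is below the d0 mean, so these groups may overlap. The log2 ratio of d14 to d0 was -0.14 (SE 0.37). Exons of *Hmgxb3* on the other strand cover 15.1% of the *Csf1r* exon bases, and whether the counting used strand is not given in the sources used here.

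*Csf2ra*, the alpha chain of the CSF2 receptor, had means of 42.2, 69.9 and 48.1 normalized counts at d0, d3 and d14, with 91.9 in the highest library. The ratio of d3 to d0 was 1.66-fold, 1.4 times its SE, and the d14 mean was 1.14-fold that of d0. For *Csf2rb*, the shared beta chain, the means were 52.4, 119 and 96.5, with 136 in the highest library. Its d3 mean was 2.27-fold that of d0 (log2 ratio 1.18, SE 0.37), the highest ratio of the 10 genes in this comparison. Each d3 library of *Csf2rb* held at least 82.5, above the d0 mean, but the highest library can be of d0, so these groups may overlap. At d14 its mean was 1.84-fold that of d0 (0.88, SE 0.34). Both chains thus had their highest mean at d3, and *Csf2rb* was the receptor gene that was still past 1.5-fold higher at d14.

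Per kb of exon, *Csf2rb* was 0.490 times *Csf2ra* at d0, 0.672 times at d3 and 0.792 times at d14. *Csf1r* was 32.7 times *Csf2rb* at d0, 22.7 times at d3 and 16.1 times at d14, and 16.0, 15.2 and 12.7 times *Csf2ra*. The order of the 3 receptor genes per kb, *Csf1r* over *Csf2ra* over *Csf2rb*, was the same in each group. Without division by length *Csf2rb* lay above *Csf2ra*, at 1.24, 1.70 and 2.01 times, so the order of these 2 chains depends on the length used. The lengths, 7277 bases for *Csf2rb* and 2871 for *Csf2ra*, merge the exons of all annotated transcripts.

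*Csf2rb* has its own near copy, *Csf2rb2*, the beta chain specific to the interleukin 3 receptor in mice, with 2503 of 2628 aligned coding bases identical (95.2%) and 22.0% of the 25-base words of *Csf2rb* in common. Its means were 29.4, 43.5 and 57.6 normalized counts, and its log2 ratios to d0 were 0.57 (SE 0.61) at d3 and 0.97 (SE 0.57) at d14. The division of reads between the beta chains is therefore uncertain.

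*Csf1*, the ligand of CSF1R, was low in all groups. Its means were 11.1 normalized counts at d0, 7.36 at d3 and 8.72 at d14, and the highest library held 18.6. The d3 mean was 1.51-fold lower than that of d0, and this log2 ratio of -0.59 was within its SE of 0.66. The log2 ratio of d14 to d0 was -0.35 (SE 0.61). Per kb of exon the receptor exceeded its ligand 112 times at d0, 266 times at d3 and 129 times at d14.

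The other ligands were lower still. *Il34*, the second ligand of CSF1R, had means of 3.80 normalized counts at d0, 0.119 at d3 and 0.256 at d14. A mean of up to 4 times the lowest in its group was read as the floor (0.292 at d3), on the assumption that the lowest value stands for no reads, which makes *Il34* at least 13.0-fold lower at d3 than at d0. The d14 mean of *Il34* was just above the d14 floor of 0.244, so its log2 ratio of d14 to d0, -3.89 (SE 0.73), is uncertain. *Csf2* had a mean of 1.09 at d0 and lay at the floor in both BDL groups, and it was left out by the filter. *Csf3*, *Il3* and *Il5* were not analysed here.

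Of the other receptors of the family, *Csf3r*, the receptor for granulocyte CSF, had means of 55.0, 40.3 and 36.8 normalized counts at d0, d3 and d14, with log2 ratios to d0 of -0.45 (SE 0.37) and -0.58 (SE 0.35). Per kb *Csf1r* exceeded it 15.5, 33.2 and 20.9 times. *Il3ra*, the alpha chain of the interleukin 3 receptor, had means of 12.4, 9.38 and 19.4, and its mean at d14 was higher than at d3 by a log2 ratio of 1.05 (SE 0.41). *Il5ra* was not analysed here.

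At d14 the log2 ratios of the 10 genes to d0 ranged from -1.13 to 2.41. Past 1.5-fold, where 49.9% of all genes lay either way, 4 were higher (*Lyz1*, *Lyz2*, *Csf2rb* and *Laptm5*), against 21.2% of all genes kept, and 1 was lower (*Aif1*), against 28.8%. Over 2 SE as well, 3 were higher (13.2% of all genes) and 1 was lower (16.8% of all genes). The median log2 ratio of the 10 was 0.47, against -0.04 over all genes kept and 0.22 over the genes with a mean of at least 30, and it was -0.10 with the pan-leukocyte genes centred on 0.

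From d3 to d14, a comparison in which 40.9% of all genes were past 1.5-fold either way, 2 genes were higher (*Lyz1* and *Lyz2*), against 21.2% of all genes kept, and 3 were lower (*Cd68*, *Csf1r* and *Aif1*), against 19.7%. Of these, 2 were also over 2 SE higher (11.3% of all genes) and 1, *Csf1r*, was over 2 SE lower (10.6% of all genes). The median log2 ratio of the 10 was -0.38, against -0.11 over the genes with a mean of at least 30. The 2 comparisons to d0 share the d0 libraries, and all pairs of comparisons share a group.

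**Figure D3:**
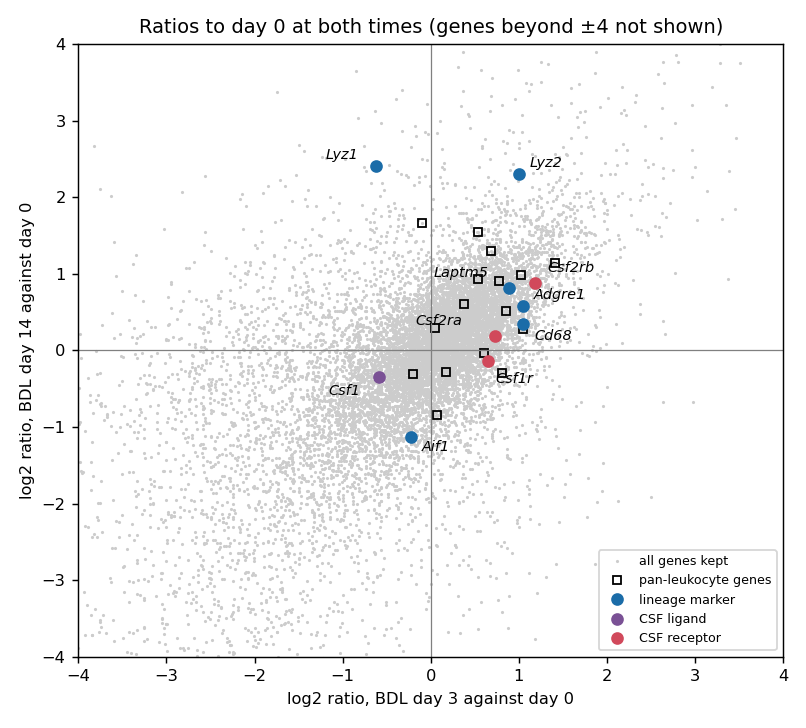
Log2 ratio of d14 to d0 against that of d3 to d0, with the genes kept as grey points, pan-leukocyte genes as open squares and the 10 genes as coloured points by role. *Adgre1*, *Cd68*, *Laptm5* and the receptor genes lie at 0.65 to 1.18 on the horizontal axis, *Lyz1* and *Lyz2* lie at 2.41 and 2.30 on the vertical axis, and both axes share the d0 means.

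For each of the 10 genes, the genes with the nearest pair of log2 ratios to d0 were found over all genes kept, from 3 group means. The pattern of *Cd68* was nearest to that of *Cfl1*, an actin-severing protein (distance 0.0091 in log2 units), followed by *Eef1e1* and *Nop2*. Nearest to *Laptm5* were *Arl4c*, *Arpc1b* and *Emd*, to *Csf1r* were *Rab10*, *Disp1* and *Apobr*, to *Adgre1* were *Fem1a*, *Uxt* and *Dohh*, and to *Csf2ra* were *Slc38a1*, *Neurl3* and *Ccdc84*. For *Csf2rb* they were *Rwdd3*, *Zbtb49* and *Jade2*, for *Aif1* they were *Inpp4b*, *Creb3l2* and *Timmdc1*, and for *Csf1* they were *Trp53bp2*, *Tmem273* and *Krcc1*. These 8 genes had 25 to 65 neighbours within 0.1. This radius is below the approximate SE of each ratio to d0 of the 10 genes, the lowest of which was 0.30, for *Adgre1* at d14. Which genes rank as nearest is therefore uncertain. The d0 means of *Rwdd3* and *Zbtb49*, 0.861 and 0.782, were also near the d0 floor of 0.512.

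The lysozyme genes had few neighbours. *Lyz2* had 1 gene within 0.1, *Lmln*, at 0.090, with means of 0.550, 1.09 and 2.54 normalized counts, and next came *AC154492.2* and *Galns*, a lysosomal sulfatase, at 0.11 and 0.15. The d0 mean of *AC154492.2*, 0.486, was at the d0 floor of 0.512, and that of *Lmln* was just above it, so their ratios to d0 are uncertain. *Galns* had means of 8.52, 16.2 and 45.8. *Lyz1* had 0 genes within 0.1, and *Cdh4*, *Arhgef10l* and *Gabrp* were nearest, at 0.13 to 0.15.

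The genes that carry the signal of these receptors inside the cell were followed as a list of 28, all of which passed the filter. At d3, 5 were past 1.5-fold higher than at d0, 3 were lower and 20 lay between, with a median log2 ratio of 0.25, where 19.2% and 29.2% of all genes were higher and lower. At d14, 7 were higher, 7 were lower and 14 lay between, with a median of -0.01. From d3 to d14, 3 were higher, 9 were lower and 16 lay between, with a median of -0.13, against 21.2% higher and 19.7% lower of all genes. At d14, the 14 genes past 1.5-fold either way were a share near the 49.9% of all genes.

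The signalling genes with the highest ratios of d14 to d0 were *Pik3cg*, *Socs3*, *Akt1* and *Bcl2l1*. *Pik3cg*, a catalytic subunit of phosphoinositide 3-kinase, had means of 13.8, 16.7 and 31.6 normalized counts (log2 ratio at d14 1.20, SE 0.31). *Akt1*, the kinase downstream of it, had 85.8 at d0 and 180 in both BDL groups (1.07, SE 0.23). *Socs3*, a feedback inhibitor of cytokine receptors, had 39.4, 23.3 and 87.0 (1.14, SE 0.64), and *Bcl2l1*, which encodes the survival protein BCL-XL, had 27.9, 45.7 and 54.0 (0.95, SE 0.50).

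Those with the lowest ratios were *Src*, *Ccnd1*, *Myc* and *Fyn*. *Myc*, a transcription factor of growth, had means of 37.3, 32.2 and 18.8 normalized counts (log2 ratio at d14 -0.99, SE 0.13). *Ccnd1*, which encodes cyclin D1 of the G1 phase, had 67.9, 52.7 and 34.2 (-0.99, SE 0.36). The kinases *Fyn*, with 51.7, 43.0 and 28.1 (-0.88, SE 0.51), and *Src*, with 6.55, 7.41 and 3.05 (-1.10, SE 0.95), had ratios below 2 SE.

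**Figure D4:**
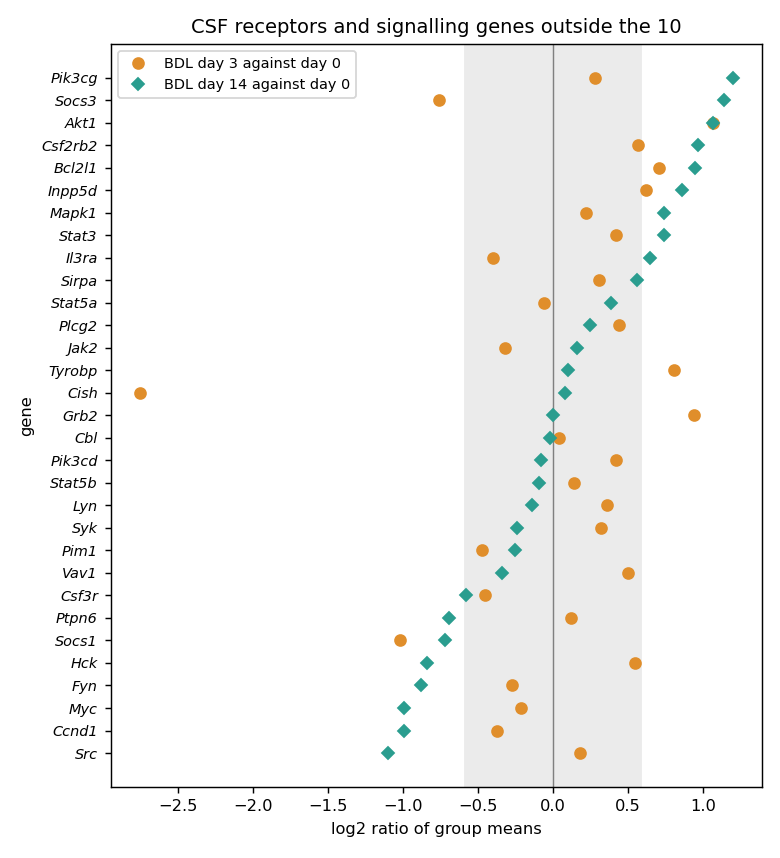
Log2 ratios to d0 of the 28 signalling genes and 3 further CSF family receptors, at d3 (circles) and d14 (diamonds), with the grey band marking ratios within 1.5-fold. The genes are ordered by the ratio at d14, from *Src* at -1.10 to *Pik3cg* at 1.20, and *Cish* lies lowest at d3, at -2.75.

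The level of these genes was set beside markers of bile duct cells, in which the study reports GFP in liver sections. The median level of the 6 lineage genes per kb of exon was 203 normalized counts at d0, 221 at d3 and 154 at d14. For the 14 cholangiocyte markers, those of bile duct cells, it was 1.85, 0.888 and 1.33, and the highest of them was *Spp1*, which macrophages also make, at 279, 106 and 481 per kb. *Prom1* itself had means of 6.66, 0.956 and 1.76 normalized counts, and *Krt19*, a keratin of bile duct cells, had 21.5, 12.7 and 14.3. *Csf1r* alone, at 1360, 2140 and 1230, lay above both in each group. Other epithelial markers were not as low: the keratins *Krt18*, at 36.5, 31.5 and 35.1 per kb, and *Krt8*, at 29.2, 30.7 and 31.1, lay above *Csf2ra*, *Csf2rb* and *Lyz1* in each group, and *Spp1* lay above the median of the lineage genes at d0 and d14.

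Of the 16 pan-leukocyte genes, 8 were past 1.5-fold higher at d3 (19.2% of all genes) and 0 were lower (29.2%), with a median log2 ratio of 0.57. At d14, 8 were higher (21.2% of all genes) and 1 was lower (28.8%), with a median of 0.56. The leukocyte genes thus lay on the same side of d0 as most of the macrophage genes, and their part in the ratios of the 10 genes was not tested. *Ptprc*, which encodes CD45, had means of 148, 129 and 119 normalized counts, and per kb *Csf1r* was 29.1 times *Ptprc* at d0, 52.6 times at d3 and 32.8 times at d14. The *Ptprc* length of 18313 bases merges the exons of all its annotated transcripts, which raises these ratios if the transcripts present are shorter. Without division by length *Csf1r* was 9.19, 16.6 and 10.3 times *Ptprc*. In sorted bulk RNA, fewer cells of a type and less RNA per cell cannot be told apart.

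Marker lists of other cells had lower summed levels at d3 than at d0, and at d14 the sum of the endothelial markers was near that of d0. A sum can hide genes that go opposite ways. From d0 to d3 and d14, the 8 neutrophil markers had 496, 223 and 127 normalized counts in sum, the 6 B cell markers had 376, 89.8 and 55.6, and the 9 T and NK cell markers had 128, 45.0 and 11.5. The 6 dendritic cell markers had 39.8, 13.7 and 21.9, and at d14 3 of them were past 1.5-fold higher than at d0 and 3 were lower (21.2% and 28.8% of all genes). The 10 hepatocyte markers had 3686, 1057 and 446, the 10 mesenchymal markers 1315, 30.8 and 123, the 8 sinusoidal endothelial markers 1032, 587 and 994, and the 14 cholangiocyte markers 642, 314 and 950. Of the 8 endothelial markers, 7 were past 1.5-fold lower at d3 (29.2% of all genes) and 1 lay between. At d14, 1 was higher, 2 were lower and 5 lay between (21.2% and 28.8% of all genes higher and lower). Without *Spp1* the cholangiocyte sum was 183, 139 and 158, below d0 at d14, and of the 11 cholangiocyte markers kept 2 were past 1.5-fold higher and 6 lower at d14 (21.2% and 28.8% of all genes). Single markers at the floor at d14 were *Ly6g*, *Elane* and *Camp* of neutrophils, *Ncr1* of NK cells, *Pax5* of B cells, *Lrat* of stellate cells and *Fabp1* of hepatocytes. *Ly6g* was near the floor at d0 already, at 0.563. The marker highest at d0 in each of these lists was above the d14 floor of 0.244: *S100a9* at 80.9, *Cd3g* at 0.710, *Ighm* at 34.1, *Col3a1* at 32.3 and *Alb* at 271. Markers at the floor thus do not show that a cell type was absent. The 6 erythroid genes took 8.08% of the summed signal at d0, 0.916% at d3 and 0.609% at d14. What these differences contribute to the ratios of the macrophage genes was not tested.

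**Figure D5:**
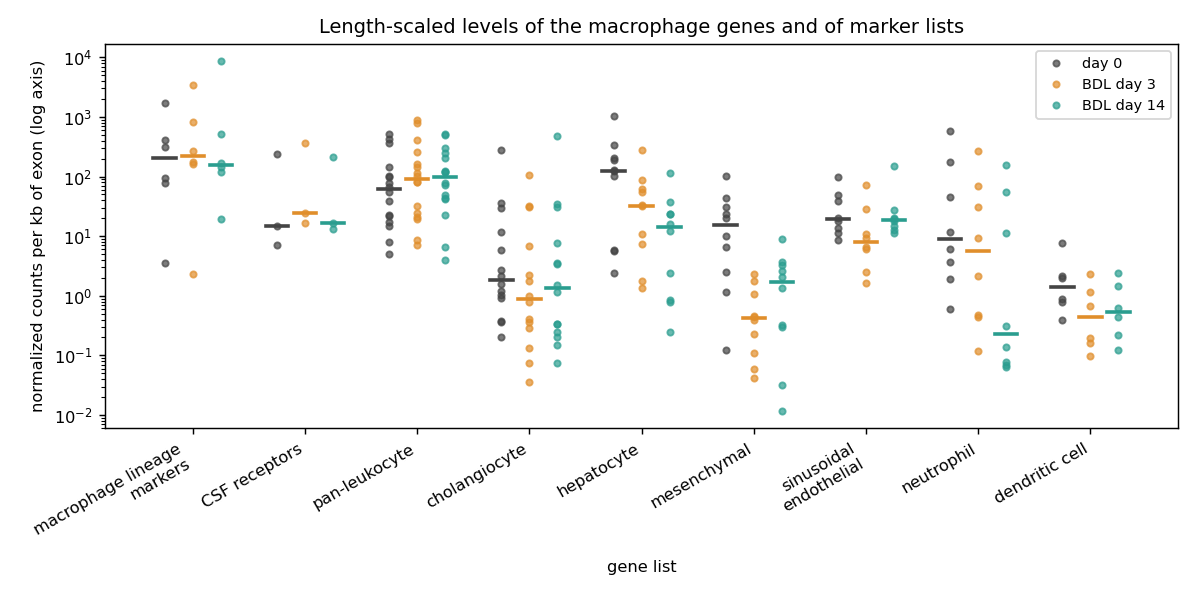
Normalized counts per kb of exon (log axis) of each gene of the lineage list, the CSF receptors and 7 marker lists at d0, d3 and d14, with bars at the median of the list. The bar of the lineage genes lies at 203, 221 and 154, and that of the cholangiocyte markers at 1.85, 0.888 and 1.33.

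The positions of the 10 genes on build mm10 were taken from the deposited table. *Adgre1* lies at chr17:57358691-57483527 and *Aif1* at chr17:35170991-35176068. *Cd68* lies at chr11:69664213-69666153, *Laptm5* at chr4:130913125-130936141, *Lyz2* at chr10:117277331-117282321 and *Lyz1* at chr10:117287797-117292868. Of the CSF genes, *Csf1* lies at chr3:107741048-107760469, *Csf1r* at chr18:61100598-61132149, *Csf2ra* at chr19:61223957-61228429 and *Csf2rb* at chr15:78325752-78353847. The microRNA gene *Mir7676-2* covers 62 exon bases of *Csf2rb*, and beside *Csf1r* and *Csf2rb*, the exons of 8 genes overlap those of no other annotated gene.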

How the data were processed

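The libraries were made from GFP(+) cells sorted by FACS, with a TruSeq mRNA kit per the study's methods. The authors trimmed reads to a quality of 20 and a length of 25 bases, aligned them to mm10 with STAR (version 2.6.1d in the submitters' processing notes), counted them on GENCODE genes and normalized them by the upper quartile in Partek Flow. Upper-quartile scaling sets values relative to the other genes of a library, so ratios are relative to the upper quartile of each library and say nothing of RNA per cell. The deposited signal values are group means, a mean over all libraries, a geometric mean and the highest library, with 0 columns per library. The authors' p-values, FDR, fold changes and limits were not used.

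Genes with at least 10 normalized counts in sum were kept. Ratios were formed with no pseudocount and set against 1.5-fold, the study's threshold. The tests foreseen for values per library (limma or edgeR) could not be run. The group means, weighted by 3, 3 and 4 libraries, returned the deposited mean within 0.469% for 99% of the genes, and the spread came from the deposited geometric mean, an approach chosen after the columns were seen. It was run on simulated log-normal values, which does not test whether the real values are log-normal. Exon lengths were of GENCODE M21 (16934 of 16971 genes matched), whereas the authors used another release. They merge the exons of all annotated transcripts of a gene, so they can exceed the length of the transcripts present, and levels per kb depend on this.

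The genes named are the 10 members, all CSF ligands and receptors listed, the 4 signalling genes with the highest and the 4 with the lowest ratio of d14 to d0, the 3 nearest genes of each member, near copies, overlapping genes, and of each marker list the genes highest at d0 or at the floor. *Prom1*, *Krt19*, *Krt18*, *Krt8*, *Ptprc* and *Cish* were named from their lists after values were seen. The members and lists were chosen with earlier results of these data known. Alternatives were median-ratio scaling, quantile normalization, centring on the pan-leukocyte list, no filter, pseudocounts of 1 and 0.1, a 2-fold threshold and means without the highest library. Python 3.11.15, numpy 2.4.6, pandas 2.3.3, Biopython 1.88 and matplotlib 3.10.9 were used.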

Additional observations from a re-analysis of the deposited data

How the results depend on the processing

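Under median-ratio scaling, no filter, either pseudocount and means without the highest library, the 30 single-gene log2 ratios kept their direction and moved by less than the spread. Removing the filter cannot change the ratio of a gene. The highest library could be placed in a group, and so left out, only for *Lyz1* and *Lyz2*. Their log2 ratios of d14 to d0 became 1.75 and 1.91, and the ratios of the other genes were not altered in this setting. Median-ratio scaling gave 8 genes past 1.5-fold at d3 and 6 at d14, with *Adgre1* higher at d14 and *Csf1* no longer lower at d3, and a pseudocount of 1 gave 7 at d3, with 0 lower. Of the genes past 1.5-fold, 9 at d3 and 5 at d14 against d0 and 5 between the BDL groups, quantile normalization left 5 at d3 (47.7% of all genes) and 3 between the BDL groups (38.4%). It set the medians to 0.52, 0.24 and -0.22 in these comparisons, and the ratio of *Lyz1* at d3 to 0.11, the reverse direction. The median of all genes was then 0.12 and 0.10 in the comparisons to d0. Centring on the pan-leukocyte list moved the median of all genes to -0.59 and -0.60, left 4 genes past 1.5-fold at d3 (1 higher and 3 lower, 55.5% of all genes), and set the medians of the 10 genes to 0.24 at d3 and -0.10 at d14 against d0. With a 2-fold threshold 3, 3 and 2 genes were past it, near the 28.2%, 29.3% and 23.2% of all genes, and under these 3 alternatives the count at d3 was near or below the share of all genes. Asking for over 2 approximate SE as well, an alternative chosen after seeing the data, left 4 at d3 against d0 (26.4% of all genes) and 3 between the BDL groups (21.9%). The cause was not tested.

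No paired analysis was possible because the table holds group means and the labels give no replicate numbers. Leaving out each library in turn was not run because the values are group means. The counting error of the low genes *Csf1* and *Lyz1* cannot be given without the depth of each library.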
